A study of Homo sapiens with 32 samples.

Results

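The 10 genes described here encode the subunits and regulators of the cohesin complex: the alternative STAG subunits STAG1 and STAG2, the ring subunits SMC1A, SMC3 and RAD21, the loading factors NIPBL and MAU2, and the release factors WAPL, PDS5A and PDS5B. They were chosen by symbol for their known roles, and all 10 of 10 were found among the 28278 gene symbols of the count tables and, by Ensembl gene, among the 60107 gene identifiers of the knockdown table. All 10 passed the filter on low values in every comparison. RNA was measured by sequencing of oligo-dT libraries in 3 Ewing sarcoma cell lines, A673, SK-N-MC and A4573. Ewing sarcoma is a bone and soft tissue tumour driven by the EWS::FLI1 fusion. The A673 libraries of experiments 1 and 2 comprised 6 controls (4 of the WT clone and 2 of parental cells) and 5 clones with CRISPR knockout (KO) of STAG2. Experiment 2 also held 3 EZH2 KO and 3 SUZ12 KO clones, in which a subunit of the Polycomb repressive complex PRC2 was targeted, and these share the 3 controls of that experiment. Experiment 3 held 1 WT clone library, 1 parental library and 3 STAG1 KO clones. The WT clone and all edited A673 clones derive from 1 clone with an inducible Cas9 at the AAVS1 locus, so each KO library is a single clone. Experiment 4 compared 3 mock-transfected A673 control libraries with 3 transfected with an siRNA pool against STAG2 (siSTAG2). Each arm of the isogenic pairs was a single library. The pairs were STAG2-proficient SK-N-MC cells and a STAG2 KO clone of them, and A4573 cells without STAG2 and a clone in which it was restored (STAG2 KI). The study describes the A4573 line as not expressing STAG2.

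Cohesin is a ring that entraps DNA. SMC1A and SMC3 are long ATPase arms, RAD21 closes the ring, and either STAG1 or STAG2 binds RAD21 to complete the complex in somatic cells. NIPBL, with its partner MAU2, loads cohesin on chromatin and stimulates the extrusion of DNA loops, while WAPL together with PDS5A or PDS5B opens the ring and releases it. Loops end mainly where cohesin meets the zinc finger protein CTCF. The ring also holds sister chromatids together until mitosis. STAG2 is on the X chromosome and is among the genes most often mutated in Ewing sarcoma after the fusion itself.

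STAG1, PDS5A and PDS5B were higher with STAG2 loss in each of the 4 settings described here. These are means in A673 and single libraries in the isogenic pairs. After STAG2 KO in A673 only PDS5B of these genes passed the test, and STAG1 and PDS5A overlapped with the controls. How many of all genes had the same sign in every setting was not computed. The results turn most on STAG1 and PDS5B, so the 250 bases before their RefSeq transcription starts are shown (GRCh38.p14, gene strand, 5′ to 3′). Capitals mark the match to the core of the CTCF motif, searched on both strands like all motifs here. The choice of these genes and of this motif was made after their values and sequences had been seen. The STAG1 sequence is chr3:136752379-136752628 (minus strand) and that of PDS5B is chr13:32586202-32586451 (plus strand).
STAG1: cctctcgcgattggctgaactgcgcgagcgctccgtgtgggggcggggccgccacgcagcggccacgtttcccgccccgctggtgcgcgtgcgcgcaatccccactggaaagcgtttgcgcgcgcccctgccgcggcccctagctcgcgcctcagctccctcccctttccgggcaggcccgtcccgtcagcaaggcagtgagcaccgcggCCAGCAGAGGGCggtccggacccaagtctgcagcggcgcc
PDS5B: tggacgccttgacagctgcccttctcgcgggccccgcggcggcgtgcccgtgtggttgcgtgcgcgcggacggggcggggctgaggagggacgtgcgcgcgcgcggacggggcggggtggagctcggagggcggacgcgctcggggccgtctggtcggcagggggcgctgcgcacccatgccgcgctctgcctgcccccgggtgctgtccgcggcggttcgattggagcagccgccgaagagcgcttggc

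Both windows are rich in G and C, at 74.4% for STAG1 and 78% for PDS5B, against a median of 58% over all 35116 promoters of the table. The CTCF core occurred in 1 of the 12 promoters listed for 9 of the 10 members, that of STAG1, and in 0.427% of all promoters. A looser form, with any base at the variable positions, occurred in 4 of the 12 and in 8.9% of all promoters. The 4 were 1 of STAG1, 1 of NIPBL and 2 of STAG2. Both counts take only full matches to a set pattern. The PDS5B window holds a stretch that resembles the CTCF core but starts with another base, and neither count includes it. The absence of PDS5B from both counts thus does not exclude a CTCF-like site in its window. GGAAGGAA, a repeat of the core that ETS factors bind and the unit of the repeats bound by EWS::FLI1, was found in 1 STAG2 promoter and in 3.06% of all promoters. CCGGAAGT, a high-affinity ETS site, was found in the NIPBL promoter and in 3.42% of all. GCATGCGC, part of the site of the factor NRF1, was in none of the 12 and in 2.63% of all. STAG1 and PDS5B therefore held neither of the ETS words in this window, and the matches are a description of letters only. RAD21 is named here without a promoter.

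The genes are spread over the genome (GENCODE v44, GRCh38): STAG1 lies at chr3:136336236-136752403, PDS5B at chr13:32586452-32778019, and STAG2 and SMC1A on the X chromosome at chrX:123960212-124422664 and chrX:53374149-53422728. Reads were not stranded. STAG1 shares 1661 exon bases with PCCB, STAG2 shares 269 with STAG2-AS1 and TENM1, RAD21 shares 847 with neighbours including UTP23 and RAD21-AS1, and SMC1A shares 39 with RIBC1, so part of the reads over these bases cannot be assigned to 1 gene. SMC3 also shares transcript sequence with the pseudogene SMC3P1. No run of 86 bases, the read length, was shared with another gene by NIPBL, MAU2, WAPL, PDS5A or PDS5B.

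Total counts per library were 15734628 to 20663679 in the 22 A673 libraries, 29322507 to 32261248 in the isogenic libraries, and 6852340 to 8184632 recovered reads in the knockdown. The Ewing sarcoma markers NKX2-2, NR0B1, STEAP1, PRKCB and CCND1 were detected in every count library, at 25.3 CPM (TMM-scaled counts per 1e+06) or more. CD99 was listed at 0 in all of them and at 3723 or more in the knockdown table. Of 6 markers of other cells (PTPRC, CD3E, PECAM1, EPCAM, MYOD1 and ALB), the summed level was 0.521 to 6.85 CPM in A673 and 0.723 to 2.37 CPM in A4573. In SK-N-MC it was 4.08 CPM with STAG2 and 66.1 CPM without it, of which PTPRC, a leukocyte surface phosphatase, gave 56.6 CPM. EZH2 was 43.2 ± 13.6 CPM in the 3 EZH2 KO clones against 181 ± 11.6 in the 3 controls (mean ± SD). SUZ12 was 11.3, 15.9 and 20.6 CPM in the 3 SUZ12 KO clones against 62.7 ± 3.74 in the controls. Both targeted genes fell (edgeR quasi-likelihood test, adjusted p = 0.000137 and 0.000299). Both WT clone libraries of experiment 1 were close to sampling noise of each other: the chi-square per gene averaged 1.33, where the WT clone pair of experiment 2 had 9.41.

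In control A673 cells the members differed in level when counts were divided by exon length. Over the 8 controls SMC1A had the highest value at 41.2 ± 8.61 CPM per kb of exon (mean ± SD), followed by RAD21 at 33.0 ± 4.62 and PDS5A at 23.3 ± 1.60. The ranges of SMC1A and RAD21 overlapped, but the highest PDS5A value of 26.2 was below the lowest RAD21 value of 28.1. SMC3 at 21.0 ± 1.90, STAG2 at 18.3 ± 2.02 and WAPL at 15.8 ± 1.19 followed, and the range of each overlapped with that of the one before it. STAG1, NIPBL and PDS5B overlapped with each other, at 11.9 ± 3.14, 11.3 ± 1.73 and 9.96 ± 0.546 CPM per kb. MAU2 had the lowest mean at 6.96 ± 0.711 CPM per kb, below every value of PDS5B and NIPBL. With the length of the longest transcript in place of all exons, RAD21 was first, SMC3 next, SMC1A only after both, and NIPBL last, so the order within this list depends on the transcript model.

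**Figure D1:**
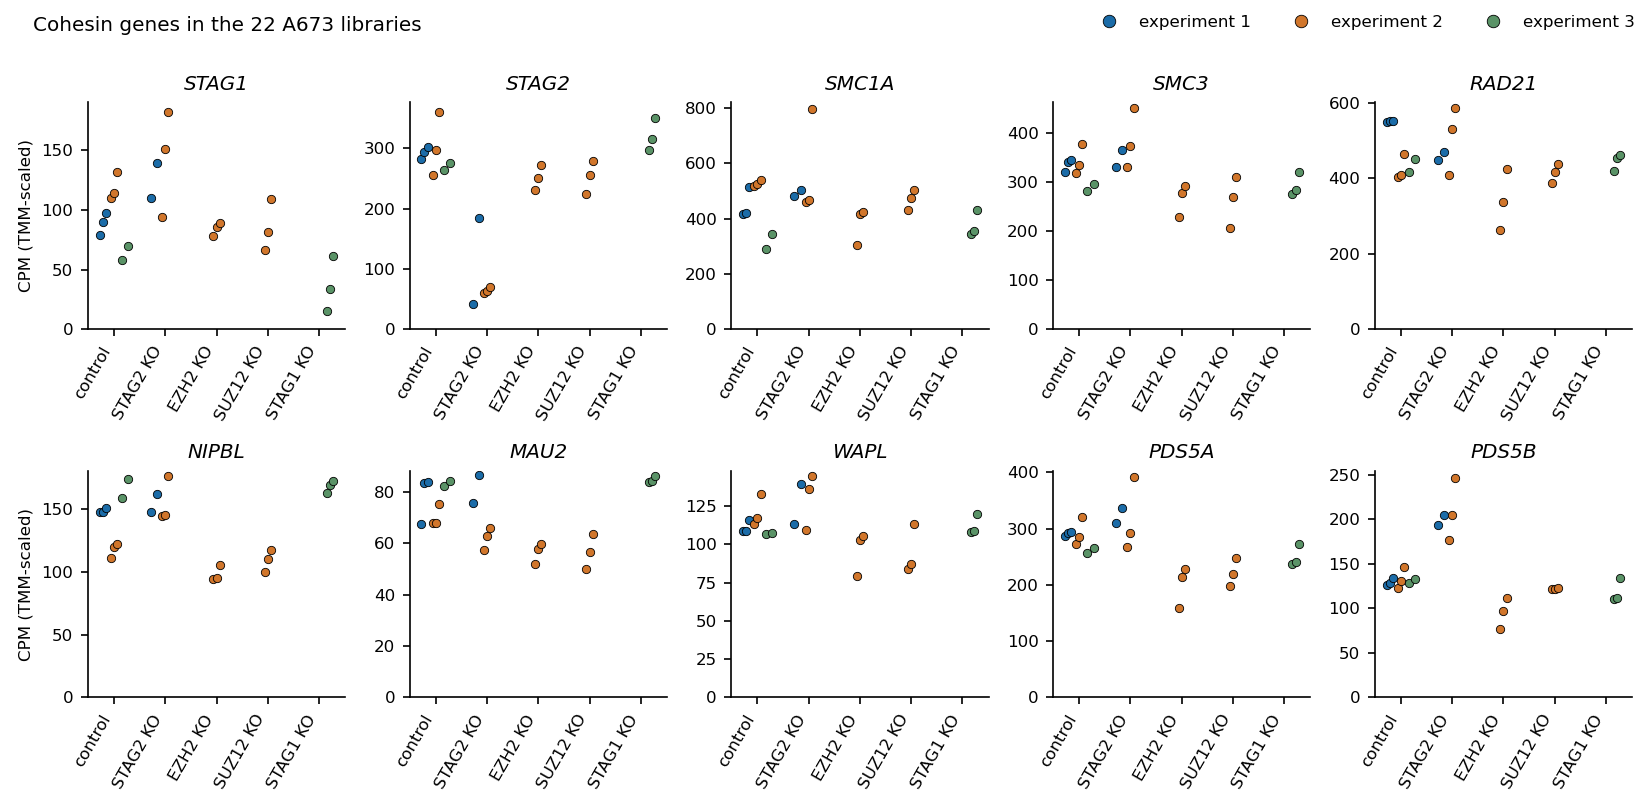
TMM-scaled CPM (y axis from 0) of the 10 cohesin genes in the 22 A673 libraries, 1 point per library, by genotype (x axis) and coloured by experiment. PDS5B is above all controls in the 5 STAG2 KO clones, and 1 STAG1 KO library lies at the control level of STAG1.

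The first comparison asked how loss of STAG2 altered the RNA of the rest of the complex. STAG2 itself fell and PDS5B rose, while the other 8 members did not pass the test (edgeR quasi-likelihood test, Benjamini-Hochberg adjusted p over 13574 genes). Thus 2 of 10 members were called, among them the targeted gene STAG2, against 12.4% of all genes tested. The median log2 fold change of the members was 0.17, and that of all genes tested was 0.04.

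STAG2 was 42.4 and 184 CPM in the STAG2 KO libraries of experiment 1, and 59.5, 63.8 and 69.4 CPM in those of experiment 2. The lowest, median and highest of the 6 control values were 256, 296 and 361 CPM. All KO libraries were below all controls, but the library labelled STAG2 KO number 24 in experiment 1 retained most of the STAG2 RNA. The log2 fold change was -1.81 ± 0.319 (SE, adjusted p = 0.00424), and -2.37 without that library, where the same number of members, 2, was called. An edited transcript can persist as RNA, and protein was not measured in these files. The study states that its A673 clones were checked for STAG2 by sequencing and by immunoblot.

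PDS5B, 1 of the 2 PDS5 proteins that act with WAPL in release and also with the acetylated ring in cohesion, was the only other member called. It was 194 and 204 CPM in the KO libraries of experiment 1 and 177, 204 and 246 CPM in those of experiment 2. The lowest, median and highest control values were 123, 130 and 147 CPM. The 5 KO libraries were all above the 6 controls. The log2 fold change was 0.68 ± 0.0966 (SE, adjusted p = 0.00123), a mean of 205 ± 25.6 CPM (SD, n = 5) against 132 ± 8.38 (n = 6). Within experiments it was 0.62 in experiment 1 (adjusted p = 0.0125) and 0.70 in experiment 2 (adjusted p = 0.0548). The 2 WT clone libraries of experiment 1 were close to sampling noise of each other, so its p-value rests partly on near duplicates. Leaving out any 1 library kept the call, with adjusted p from 0.0003 to 0.0067, and so did summing the 2 WT clone libraries of experiment 1 (adjusted p = 0.00433). PDS5A, the paralog of PDS5B, was 319 ± 47.7 CPM in the KO libraries and 292 ± 15.6 in the controls (log2 fold change 0.17, adjusted p = 0.356). WAPL, the partner of both, was 129 ± 16.2 against 116 ± 8.81 CPM (0.18, adjusted p = 0.273). The ranges of both overlapped between groups.

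**Figure D2:**
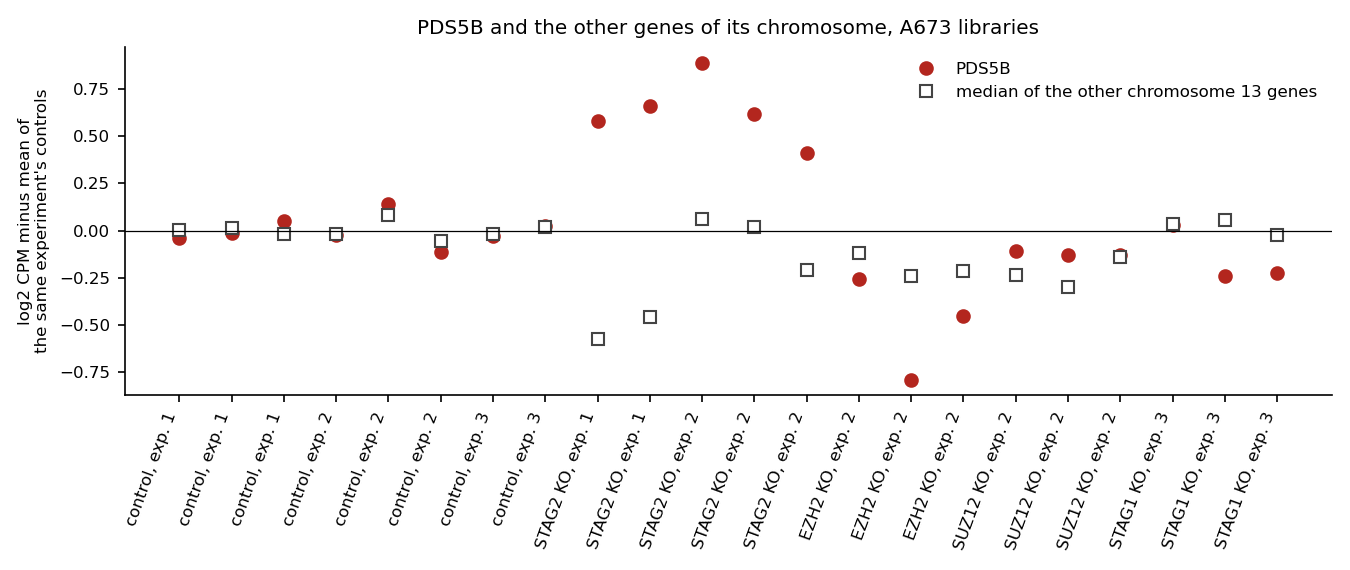
PDS5B (red) and the median of 205 other chromosome 13 genes (open squares) in each A673 library, as log2 CPM minus the mean of the controls of the same experiment (y axis); libraries are ordered by genotype and experiment. In both STAG2 KO libraries of experiment 1 the chromosome 13 median lies at -0.46 and -0.57 while PDS5B lies at 0.66 and 0.58.

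PDS5B lies on chromosome 13, and the other genes of this chromosome moved the opposite way in part of the STAG2 KO libraries. The median of the other 205 chromosome 13 genes with at least 5 CPM was -0.46 and -0.57 (log2, relative to the controls) in the KO libraries of experiment 1. In experiment 2 it was 0.02, -0.21 and 0.06 for clones 3, 5 and 2. PDS5B minus this median was 1.11, 1.15, 0.60, 0.62 and 0.82 in the same order. PDS5B was thus above its chromosome in all 5 libraries. For the other 9 members the median of their chromosome in STAG2 KO libraries ranged from -0.28 to 0.23. These medians were computed after the values of PDS5B had been seen, the number of copies of the chromosome was not measured, and its part in the PDS5B values was not tested.

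STAG1, the paralog that can take the place of STAG2 in the ring, had a positive difference that did not pass the test. It was 110 and 139.5 CPM in the KO libraries of experiment 1 and 93.8, 151 and 182 CPM in those of experiment 2. The lowest, median and highest control values were 78.6, 104 and 131 CPM. The groups overlapped: clone 5 of experiment 2 was below its own 3 controls, which had 110 to 131 CPM, and the other clones were above the controls of their experiment. The log2 fold change was 0.40 ± 0.153 (SE, adjusted p = 0.114). Without clone 5 it was 0.52 and passed the test (adjusted p = 0.00472), so 1 library decides this call.

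The ring subunits had small differences. SMC1A was 543 ± 143 CPM in the KO libraries against 489 ± 55.7 in the controls (log2 fold change 0.18, adjusted p = 0.522), and clone 5 alone reached 797 CPM where the other KO libraries had 461 to 505. SMC3 was 369 ± 48.8 against 339 ± 20.9 CPM (0.16, adjusted p = 0.367). RAD21 was 488 ± 69.2 against 488 ± 71.8 CPM (0.07, adjusted p = 0.803). Within experiments RAD21 lay on opposite sides: 449 and 470 CPM against 549 to 552 in the controls of experiment 1, and 409 to 585 against 404 to 464 in experiment 2. The test of the difference between experiments gave 0.52 ± 0.212 on the log2 scale (adjusted p = 0.135). That test called 0 of 14616 genes (0%), with 4483 genes at an unadjusted p under 0.05, and RAD21 was the 1 member among them.

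The loaders also did not pass. NIPBL was 155 ± 13.8 CPM in the KO libraries and 133 ± 17.5 in the controls (log2 fold change 0.30 ± 0.109, adjusted p = 0.103 with edgeR and 0.0496 with DESeq2). The difference was 0.06 in experiment 1 and 0.46 in experiment 2, where the 3 KO clones had 145 to 177 CPM and the 3 controls 111 to 122. MAU2 was 69.7 ± 11.5 against 74.3 ± 7.80 CPM (-0.03, adjusted p = 0.867).

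**Figure D3:**
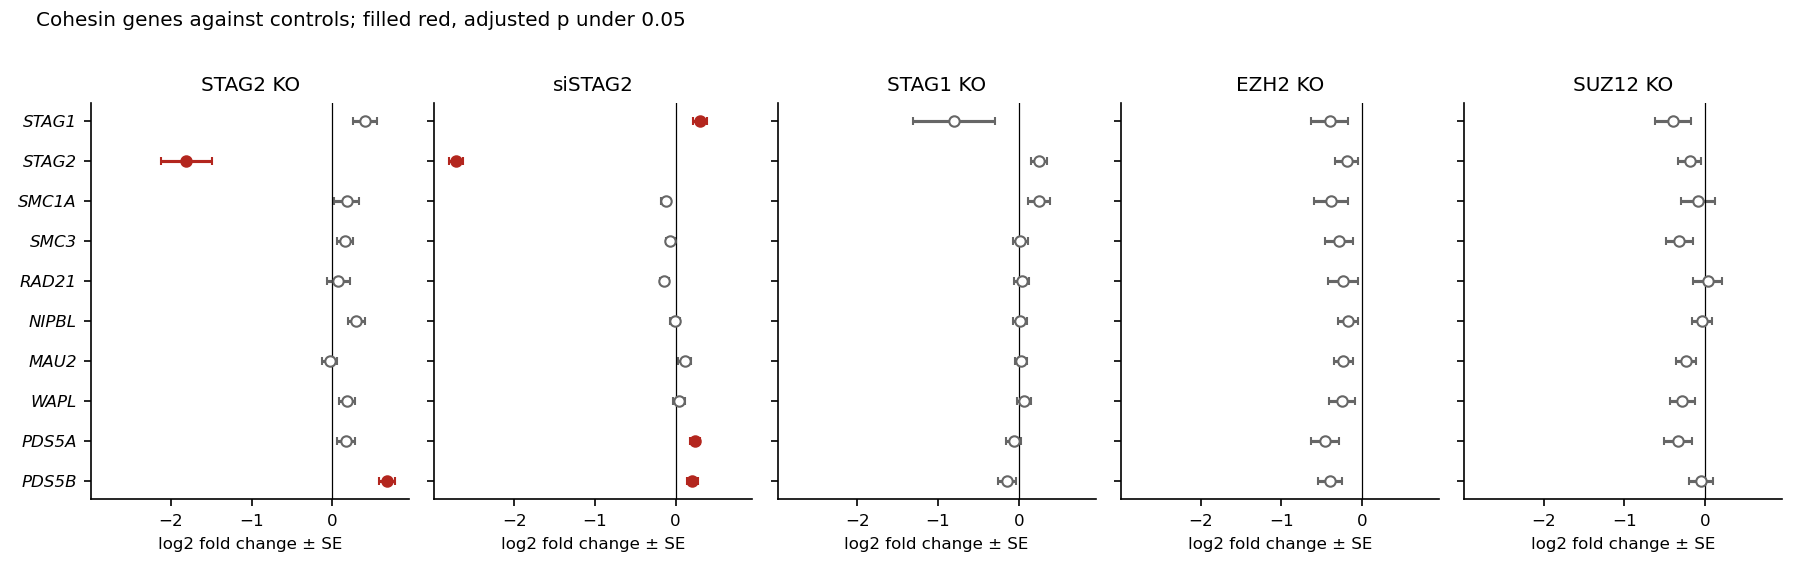
Log2 fold change against controls with its standard error (x axis, the same scale in all panels) of the 10 cohesin genes (y axis) after STAG2 KO, siSTAG2, STAG1 KO, EZH2 KO and SUZ12 KO. Filled red points passed an adjusted p of 0.05: STAG2 and PDS5B after STAG2 KO, and STAG1, STAG2, PDS5A and PDS5B after siSTAG2.

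Acute depletion with siSTAG2 gave a separate comparison with other libraries and without isolating clones. Values are the authors' normalized counts, tested on log2(value + 1) with limma, and fold changes on this scale are slightly understated for low genes. STAG2 fell, and STAG1, PDS5A and PDS5B rose. These were 4 of 10 members, among them the targeted gene STAG2, against 20.5% of the 12060 genes tested. The medians of the members and of all genes were 0.02 and 0.01.

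STAG2 was 144, 180 and 153 after siSTAG2 and 1068, 992 and 1090 in the controls. The log2 fold change was -2.72 ± 0.0854 (SE, limma adjusted p = 4.01e-18). The depletion was thus present in 3 of 3 libraries.

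STAG1 was 388, 328 and 423 after siSTAG2 against 297, 305 and 318 in the controls. All 3 knockdown values were above all 3 controls. The log2 fold change was 0.30 ± 0.0908 (limma adjusted p = 0.019), and leaving out 1 library at a time gave adjusted p from 0.00531 to 0.153. PDS5B was 864, 810 and 808 against 703, 727 and 719, again without overlap (0.21 ± 0.0651, limma adjusted p = 0.0244, and 0.0255 to 0.0948 with 1 library left out). PDS5A was 1269, 1434 and 1407 against 1182, 1184 and 1116, also without overlap (0.24 ± 0.063, limma adjusted p = 0.00792, and 0.00308 to 0.0684 with 1 library left out, the highest without siSTAG2 replicate 2). Each of the 3 positive calls was thus lost in at least 1 of these fits. In size, the PDS5B difference was 0.21 after siSTAG2 and 0.68 after KO, but the tables were normalized separately and this difference was not tested. RAD21 was 2394 ± 13.8 after siSTAG2 and 2635 ± 63.2 in the controls, below all of them but not called (-0.14 ± 0.0546, limma adjusted p = 0.074). SMC1A, SMC3, NIPBL, MAU2 and WAPL had differences between -0.12 and 0.11 with overlapping ranges. The median of the other genes of chromosome 13 was 0.01 in this comparison.

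The isogenic pairs asked the same in 2 further lines, with 1 library per arm, so differences have no replicate check and no test. The ratios are of the library without STAG2 over the library with it, and their 95% intervals cover counting error only. CPM values of the pairs are scaled by TMM over these 4 libraries alone, like the ratios. In SK-N-MC 2 of 10 members differed at least 1.5-fold, against 37.5% of the 16413 genes that had 10 counts or more over both libraries. In A4573 4 of 10 did, against 42.1% of 16124 genes. The share of members, which counts the edited gene STAG2 in both pairs, was thus not above that of all genes.

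STAG1 was 105 CPM in SK-N-MC STAG2 KO cells and 69.4 CPM with STAG2, and 135 against 73.0 CPM in A4573. The log2 ratios were 0.60 (interval 0.52 to 0.67) and 0.88 (0.81 to 0.96). PDS5B was 144 against 105 CPM in SK-N-MC and 137 against 81.3 CPM in A4573. Its log2 ratios were 0.45 (0.39 to 0.51) and 0.75 (0.68 to 0.83). Both genes were thus higher in the library without STAG2 in each pair. PDS5A was also higher in both, by 0.22 and 0.27 on the log2 scale. The median of the other chromosome 13 genes was -0.19 in the SK-N-MC pair and -0.03 in the A4573 pair.

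STAG2 RNA was 184 against 293 CPM in SK-N-MC and 34.1 against 86.9 CPM in A4573. The SK-N-MC KO clone therefore kept most of the RNA, and the restored A4573 clone, with 85.2 CPM on the scale of all 26 libraries, had less than any A673 control. SMC1A was higher without STAG2 in both, by 0.29 in SK-N-MC and 0.82 in A4573 (276 against 156 CPM). SMC3 and RAD21 differed in sign between the pairs, with -0.09 and 0.13 in SK-N-MC and 0.36 and -0.16 in A4573. NIPBL was 155 CPM without and 199.8 with STAG2 in SK-N-MC (log2 ratio -0.36), and 86.9 and 85.5 CPM in A4573 (0.02, interval -0.05 to 0.10, and -0.058 when scaled by library size only). MAU2 and WAPL had ratios between -0.28 and 0.06. The higher PTPRC in the SK-N-MC KO library stands beside these values, and its part in them was not tested.

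**Figure D4:**
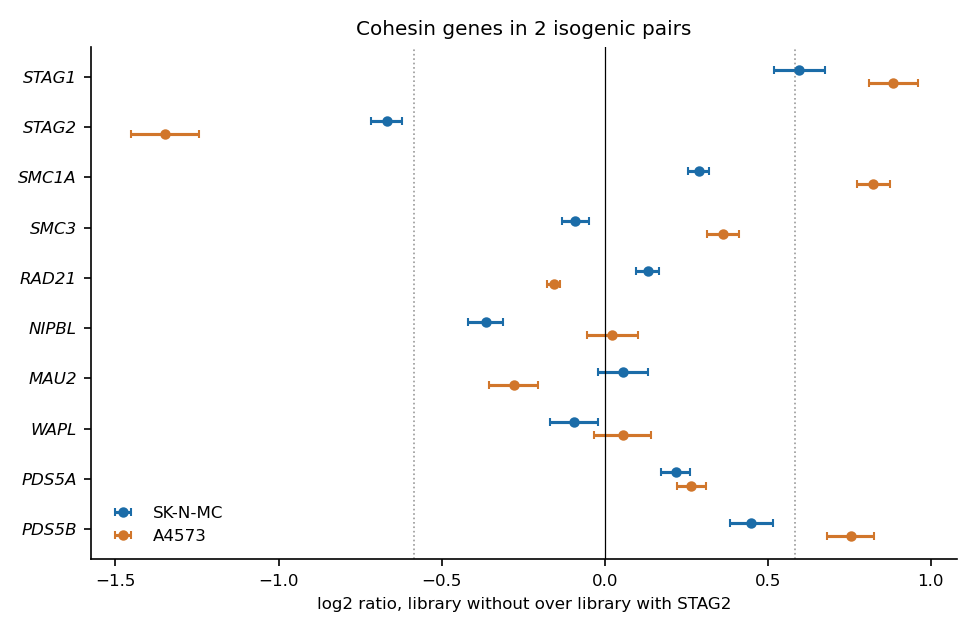
Log2 ratio of the library without STAG2 over the library with it (x axis) for the 10 cohesin genes (y axis) in SK-N-MC (blue) and A4573 (orange). Bars are 95% counting intervals, with 1 library per arm, and dotted lines mark 1.5-fold; STAG1 and PDS5B lie to the right of 0 in both pairs.

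RAD21 set A4573 apart from the other lines. It was 92.3 and 106 CPM per kb of exon in the 2 A4573 libraries, 27.4 and 30.4 in SK-N-MC, and 28.1 to 38.4 in the 8 A673 controls. RAD21 lies on chromosome 8. Its difference between A4573 and SK-N-MC was 1.78 on the log2 scale, where the median of 410 chromosome 8 genes was 0.99 and that of all genes was -0.02. NIPBL was lowest in A4573, at 6.57 and 6.69 CPM per kb against 8.85 to 13.9 in A673 controls and 12.1 and 15.3 in SK-N-MC. WAPL in A4573, at 9.23 and 9.27 CPM per kb, was also below every A673 control, the lowest of which had 14.8. A line was represented by 1 pair of libraries, and these are values with no test.

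**Figure D5:**
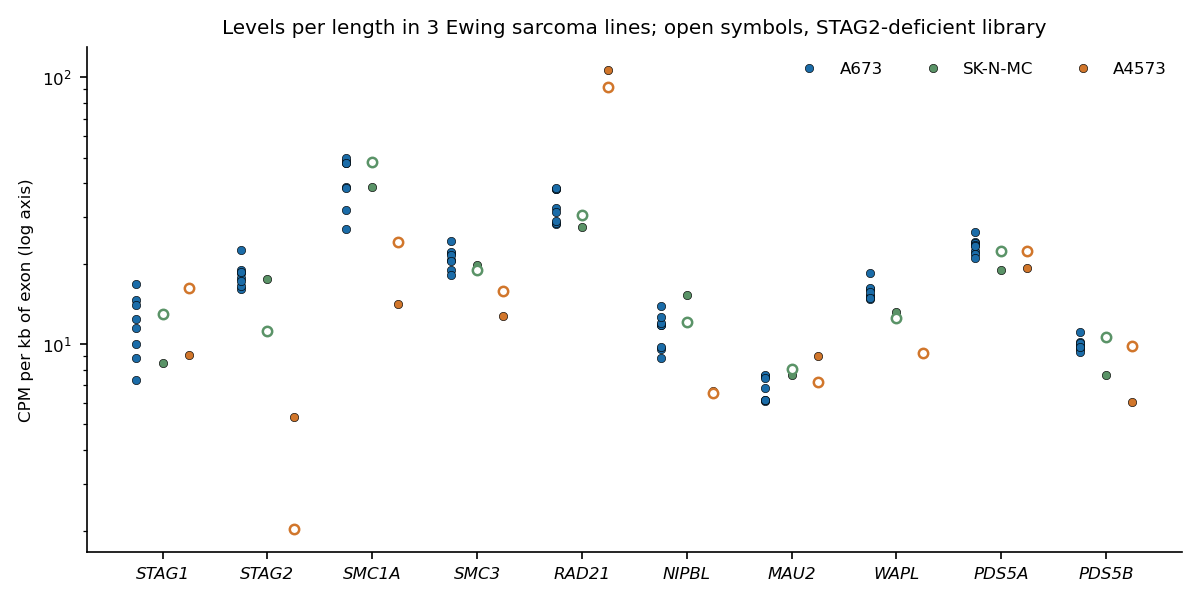
CPM per kb of exon (y axis, log scale) of the 10 cohesin genes (x axis) in 8 A673 control libraries, 2 SK-N-MC libraries and 2 A4573 libraries; open symbols are the STAG2-deficient library of a pair. RAD21 in A4573, at 92.3 and 106, is above every library of the other lines.

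STAG1 KO tested the converse. None of the 10 members was called by edgeR or by DESeq2, against 5.27% of the 14373 genes tested, and 1 had an unadjusted p under 0.05 with edgeR. STAG1 was 15.1, 33.2 and 61.5 CPM in the 3 libraries labelled STAG1 KO, and 57.8 and 69.6 CPM in the controls. The library labelled number 1 was thus at the control level of STAG1 RNA. An edited transcript can persist as RNA, and protein was not measured in these files. The study refers to an immunoblot for its STAG1-deficient A673 clones, and which clone this library is cannot be told from the labels. The log2 fold change of STAG1 was -0.80 ± 0.51 (SE, adjusted p = 0.376), and -1.39 without that library (adjusted p = 0.0731), where 0 members were called.

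STAG2 was 297, 315 and 350 CPM in these libraries against 265 and 275 CPM, above both controls but not called (0.25 ± 0.1, adjusted p = 0.196). The highest value was that of the library with STAG1 at the control level. PDS5B was 111, 112 and 134 CPM against 128 and 133 CPM (-0.14, adjusted p = 0.471). The 2 libraries with low STAG1 were below both controls, and the difference without the library labelled number 1 was -0.23 (adjusted p = 0.0975). SMC1A had 0.25 (adjusted p = 0.315), and the remaining 6 members had differences between -0.06 and 0.07.

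Whether STAG2 KO and STAG1 KO had different effects was tested over 16 libraries. It was called for 2 of 10 members, against 6.11% of the 14696 genes. Differences for STAG2 and for STAG1 are set by the design. Only the STAG2 KO clones had STAG2 targeted, and only the STAG1 KO clones had STAG1 targeted. For PDS5B the STAG2 KO effect exceeded the STAG1 KO effect by 0.78 ± 0.162 on the log2 scale (adjusted p = 0.012), and for STAG2 the same difference was -2.10 ± 0.507 (adjusted p = 0.0251). For STAG1 the difference was 1.16 ± 0.469 (adjusted p = 0.181), and 1.77 without the library labelled STAG1 KO number 1 (adjusted p = 0.0203). The PDS5B and STAG2 calls were lost when either control of experiment 3 was left out, with adjusted p for PDS5B of 0.0886 without the parental and 0.0619 without the WT clone library. The STAG2 call was also lost without the library labelled STAG1 KO number 1 (adjusted p = 0.0549).

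Loss of the PRC2 subunits did not pass the test for any member. After EZH2 KO 0 of 10 were called, against 15.7% of the 15130 genes, with 2 at an unadjusted p under 0.05. DESeq2 called 2, PDS5A and PDS5B, and 3310 of all genes. After SUZ12 KO 0 were called by either tool, against 20.6% of genes, with 0 at an unadjusted p under 0.05. All 10 differences were negative after EZH2 KO and 9 of 10 after SUZ12 KO, with medians of -0.27 and -0.22. Genes at the level of the members, with a mean of at least 50 CPM, also had negative medians, of -0.16 and -0.19 over 5089 genes, and 72.5% and 73% of them were below 0. Of these 5089 genes, 499 were called after EZH2 KO and 681 after SUZ12 KO. The lower values are thus shared by most well expressed genes.

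PDS5B was 77.1, 97.4 and 111 CPM in the EZH2 KO clones against 123, 131 and 147 in the controls (-0.40 ± 0.15, adjusted p = 0.0948). In the SUZ12 KO clones it was 122, 122 and 123 CPM (-0.05, adjusted p = 0.82). PDS5A was 159, 214 and 228 CPM after EZH2 KO against 274, 286 and 320 (-0.46 ± 0.174, adjusted p = 0.0958). In both genes EZH2 KO clone 2 was lowest. In RAD21 that clone had 262 CPM, where the other EZH2 KO clones had 337 and 424 and the controls 404 to 464. The median of the other chromosome 8 genes in this clone was -0.39, and its part in the RAD21 value was not tested. STAG1 was 78.4 to 89.1 CPM after EZH2 KO and 66.7 to 109 CPM after SUZ12 KO, below the 3 controls with 110 to 131 CPM in each case. The differences were -0.40 in both (adjusted p = 0.251 and 0.237).

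Set directly against the PRC2 clones of the same experiment, STAG2 KO clones differed in more members. Against EZH2 KO 5 of 10 were called, against 20.4% of genes: STAG1, NIPBL, PDS5A and PDS5B were higher and STAG2 lower in STAG2 KO. Against SUZ12 KO 5 of 10 were called, against 25.8% of genes: STAG1, SMC3, NIPBL and PDS5B were higher and STAG2 lower. PDS5B had the largest positive difference in each, 1.11 ± 0.151 (adjusted p = 0.00054) and 0.77 ± 0.15 (adjusted p = 0.0036). NIPBL was 145 to 177 CPM in the 3 STAG2 KO clones, 94.4 to 106 CPM in the EZH2 KO clones and 100 to 117 CPM in the SUZ12 KO clones, with no overlap. Its differences were 0.64 ± 0.122 (adjusted p = 0.00397) and 0.51 ± 0.122 (adjusted p = 0.0107). For STAG1 they were 0.72 in both (adjusted p = 0.0402 and 0.0352), and the groups overlapped in the comparison with SUZ12 KO. SMC3 was 331 to 450 CPM in STAG2 KO and 205 to 310 CPM in SUZ12 KO clones (0.55 ± 0.171, adjusted p = 0.0349). With single libraries left out the NIPBL, PDS5B and STAG2 calls held, while those of STAG1 were lost in part of the fits, with adjusted p up to 0.154 and 0.14. The SMC3 call against SUZ12 KO was lost likewise, with adjusted p up to 0.136 (without SUZ12 KO clone 2). The PDS5A call against EZH2 KO was lost without EZH2 KO clone 2 (0.0871) or STAG2 KO clone 2 (0.0937). Genes with at least 50 CPM had medians of 0.12 and 0.14 in these contrasts. The contrasts share the STAG2 KO clones and are not independent of each other, and the targeted gene STAG2 is among the members called in each.

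The WT clone and parental controls did not differ detectably in the members. None of 10 was called, against 2.72% of 14167 genes, none had an unadjusted p under 0.05, and DESeq2 also called 0. PDS5B was 126 to 147 CPM in the 5 WT clone libraries and 123 to 134 CPM in the 3 parental libraries (0.01 ± 0.0782, adjusted p = 0.957).

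Ratios within the complex were computed from levels per kb. The share of STAG1 in the sum of STAG1 and STAG2 RNA shifts with the targeted gene itself, even where its paralog does not change. This share was 39.0% ± 5.43 (SD, n = 8) in A673 controls and 77.6% ± 10.1 (n = 5) in STAG2 KO clones. It was 17.8% ± 8.50 (n = 3) in libraries labelled STAG1 KO, with 26.4% as the highest, and 30.0% and 34.9% in the controls of their own experiment 3. After siSTAG2 it was 82.8% ± 3.45 against 37.3% ± 1.17 (n = 3 each). In SK-N-MC it was 53.7% without and 32.6% with STAG2, and in A4573 89.0% and 63.1%. The restored A4573 clone thus held a larger share of STAG1 than any A673 control, the highest of which was 46.7%. In the PRC2 clones the share was 36.9% to 43.2% (EZH2 KO) and 37.7% to 44.2% (SUZ12 KO), overlapping with the 3 controls of experiment 2, which had 42.6%, 43.9% and 46.7%. In 4 of the 6 PRC2 clones it was below all 3 of these controls. The share of PDS5B in the sum of PDS5A and PDS5B was 37.4% ± 2.57 in STAG2 KO clones, with 34.8% as the lowest, and 30.0% ± 1.32 in A673 controls, with 31.7% as the highest. In SUZ12 KO clones it was 31.3% to 36.3%, overlapping with the STAG2 KO clones and above the controls of experiment 2, which had 28.5% to 30.7%. In EZH2 KO clones it was 29.7% to 31.1%. After siSTAG2 it was 35.9% ± 2.40 against 36.4% ± 0.924, since both PDS5 genes rose. NIPBL over RAD21 differed between experiments in controls, with 0.308 to 0.314 in experiment 1, 0.297 to 0.345 in experiment 2 and 0.403 and 0.480 in experiment 3. The STAG2 KO libraries had 0.378 and 0.397 in experiment 1, above its controls, and 0.315 to 0.409 in experiment 2, overlapping with them. In SK-N-MC the ratio went the other way, with 0.397 without and 0.560 with STAG2. After siSTAG2 it was 0.474 ± 0.0319 against 0.433 ± 0.0278, with overlapping ranges. The ratio was 0.0629 with and 0.0713 without STAG2 in A4573, where RAD21 was high.

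The wider pathway was read from lists of genes, beside the shares of all genes called, which were 12.4% after STAG2 KO, 15.7% after EZH2 KO, 20.6% after SUZ12 KO, 5.27% after STAG1 KO and 20.5% after siSTAG2. Of 9 genes of ring acetylation, protection and cleavage (ESCO1, ESCO2, HDAC8, CDCA5, SGO1, ESPL1, PTTG1, PLK1 and CTCF), 0 passed after STAG2 KO, STAG1 KO, siSTAG2 or SUZ12 KO. After EZH2 KO 1 fell, CTCF, which halts cohesin at loop ends, from 134 ± 2.80 to 92.9 ± 11.3 CPM (-0.45, adjusted p = 0.0482). Of the 7 genes of cohesion establishment, which act at the replication fork, CHTF8 was listed at 0 in the count tables, 6 were tested after STAG2 KO and 1 fell: TIMELESS, a fork protection protein, from 210 ± 15.4 to 157 ± 13.1 CPM (-0.38 ± 0.0864, adjusted p = 0.0159). TIMELESS also fell after EZH2 KO, by 0.58 on the log2 scale (adjusted p = 0.00546). After siSTAG2 CHTF18 and DSCC1, subunits of an alternative clamp loader, rose by 0.37 each, and CHTF8 of the same loader fell by 0.26 (limma adjusted p = 0.0171, 0.0032 and 0.00933).

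Of 8 condensin genes, whose complex compacts mitotic chromosomes, 0 passed after STAG2, STAG1, EZH2 or SUZ12 KO, and 1, NCAPD2, fell after siSTAG2 (-0.28, limma adjusted p = 0.00734). Of the 6 genes of the SMC5/6 complex, which acts in DNA repair, 1 rose and 1 fell after STAG2 KO. SMC5, an arm of that ring, was 88.5 ± 20.8 against 64.2 ± 4.72 CPM (0.50, adjusted p = 0.045). NSMCE1, a ubiquitin ligase subunit, was 21.7 ± 5.05 against 36.6 ± 6.90 CPM (-0.67, adjusted p = 0.0382). Both ranges overlapped with the controls. SMC5 was also higher in STAG2 KO than in either PRC2 KO (0.66 and 0.64, adjusted p = 0.0349 and 0.034). The other calls in these contrasts were higher CTCF and SMC6 against EZH2 KO (0.48 and 0.55), and higher ESCO1 and lower CHTF18 against SUZ12 KO (0.52 and -0.52). In the isogenic pairs the lists were read without a test, beside the 42.1% of all genes in A4573 and 37.5% in SK-N-MC that differed at least 1.5-fold in either direction. In A4573 all 8 condensin genes were at least 1.5-fold higher without STAG2, with log2 ratios from 0.68 (NCAPD3) to 2.24 (NCAPG). In that pair 6 of the 9 acetylation, protection and cleavage genes were also higher by that much, with ESPL1, the protease that cleaves RAD21, at 2.05 and the mitotic kinase PLK1 at 1.70. The same held for 5 of the 6 measured cohesion establishment genes, with DSCC1 at 1.83. These differences stand beside the higher STAG1, SMC1A and PDS5B of the same pair, and their part in them was not tested. In SK-N-MC 2 of 8 condensin genes were higher and 0 lower past 1.5-fold, and of the other 2 lists only ESPL1 and WDHD1 passed, both lower without STAG2 (-0.71 and -1.17). The germ line members SMC1B, STAG3 and RAD21L1 were at most 1.34 CPM in all 26 count libraries, and REC8 reached 10.7 CPM.

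Across the 22 A673 libraries, with the mean of each experiment removed, some pairs of members varied together, and no grouping was tested. As a description over libraries that share clones, controls and scaling, Pearson's r of log2 CPM was 0.93 between SMC3 and WAPL, 0.91 between SMC3 and PDS5A and 0.87 between WAPL and PDS5A. PDS5B had 0.82 with PDS5A, 0.77 with NIPBL and -0.74 with STAG2. The gene most alike to each member lay outside the list, so these values do not set the members apart from other genes. Among 11039 genes with at least 5 CPM, the most alike to PDS5B were DIPK2A, UBE2D1 and C2CD5 (r = 0.93, 0.92 and 0.92). For SMC3 they were TLK1, SMCHD1 and VPS26A (0.97, 0.96 and 0.95), for WAPL ZC3H15, AASDHPPT and UBA2 (0.97, 0.96 and 0.95), and for PDS5A NAE1, CNOT7 and ZNF146 (0.97, 0.955 and 0.93). For NIPBL they were ANO6, BPTF and USP34 (0.94, 0.94 and 0.91), and for MAU2 EPC2, HOXC6 and PTPN9 (0.86, 0.85 and 0.85). STAG1 was most like SNAP23, TCF3 and GTPBP8 (0.81, 0.79 and 0.79), and STAG2 most like NES, ATP8B1 and IGSF10 (0.94, 0.94 and 0.93). For RAD21 they were STK3, MKLN1 and TBC1D31 (0.88, 0.87 and 0.87), of which STK3 and TBC1D31 lie on chromosome 8 with RAD21.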

How the data were processed

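RNA-seq of A673 (experiments 1 to 4), SK-N-MC and A4573 cells was analysed. According to the methods and labels, the authors aligned 86-nt single-end reads to hg38 with TopHat (version 2.0.0), which used Bowtie (version 0.12.7) and SAMtools (version 0.1.16), and the counting program and annotation are not given in the sources used here. The authors deposited raw counts per gene symbol, except in the knockdown table, whose deposited signal is gene counts that the authors had scaled by 1 factor in each library. These came out as whole reads for 100% of values (tolerance 0.001), and the origin of the factors is not given in the sources used here.

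Libraries were grouped by the labels' genotype. The columns of the STAG2 KO libraries of experiment 1 and of the STAG1 KO libraries could be assigned to their group but to no single label, so their column numbers are used. Number 5 occurs in experiments 1 and 2, and whether it marks the same clone is not given. Each KO library is 1 clone, and the labels name no separate cultures of the WT clone, so p-values measure only the spread between these libraries. The members and lists were chosen with earlier results of these data known.

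Counts were tested with edgeR 4.0.16 in R 4.3.3 (TMM, filterByExpr, quasi-likelihood test). STAG2 KO was fitted over experiments 1 and 2 with a term for experiment, the PRC2 contrasts in 1 fit of the 12 libraries of experiment 2, and the STAG2 and STAG1 effects over 16 libraries. The knockdown was tested with limma 3.58.1 on log2(value + 1) where a gene's mean reached 10. The threshold was a Benjamini-Hochberg adjusted p of 0.05 over all genes tested. Isogenic ratios used a prior count of 2, at least 10 counts per pair and exact binomial intervals, which like all floors cover counting error only. CPM values are TMM-scaled over the 26 count libraries, and levels per kb divide by the union of GENCODE v44 exons. All 10 members are named. Of each pathway list and comparison, up to 3 called genes with the largest change and groups that do not overlap are named, and for each member the 3 most alike genes by Pearson's r (those of SMC1A are not reported here). Called genes whose groups overlapped (SMC5, NSMCE1, CHTF18 and CHTF8) and the pathway genes of the isogenic pairs fall outside that rule and were added after their values were seen. DESeq2 1.42.0, other scalings, filters, controls and left-out libraries were the alternatives. Chromosome medians, the CTCF motif and the median of genes with at least 50 CPM were added after the data were seen. The scripts were tested on simulated data.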

Additional observations from a re-analysis of the deposited data

Results flagged for a closer look

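Among 20 sets of values tested, 3 held a library far from the others, and chance flags about 1 in 20 sets. STAG2 was 184 CPM in the library labelled STAG2 KO number 24 of experiment 1, where the next highest of the 5 KO libraries had 69.4 CPM. SMC1A was 797 CPM in STAG2 KO clone 5 of experiment 2, with 505 CPM as the next highest KO value. WAPL was 133 CPM in WT clone replicate 2 of experiment 2, with 117 CPM as the next highest of the 6 controls.

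STAG2 KO and STAG1 KO differed in effect, by the test of the difference, for STAG2 (-2.10 on the log2 scale, adjusted p = 0.0251 with edgeR) and PDS5B (0.78, adjusted p = 0.012 with edgeR). STAG2 was itself the gene targeted in the STAG2 KO clones. The isogenic pairs differed in direction, beyond their counting intervals, for SMC3 (-0.090 in SK-N-MC and 0.36 in A4573) and RAD21 (0.13 and -0.16). With 1 library per arm, this difference between lines was not tested.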

How the results depend on the processing

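Of 1320 alternative fold changes of members, 1225 kept their direction and side of the threshold, 28 gained and 33 lost a call, and 34 changed sign. Of the last, 0 had an adjusted p under the threshold, and the lowest was 0.0899. The causes of these shifts were not tested. Numbers of members called moved as follows. For STAG2 KO (2 called) it was 1 in experiment 1 alone (PDS5B) and 1 in experiment 2 alone (STAG2), and DESeq2 gave 3. Over all genes DESeq2 called 2488 here, against 1687 in the main fit. For EZH2 KO (0) the members called were 2 with DESeq2 and 1 with only the groups compared. They were 0 to 2 with 1 library left out, the highest without STAG2 KO clone 5, which shares the estimate of spread. All genes called in these fits were 3310, 3429 and 3885, in that order, against 2377 in the main fit. For STAG2 KO against EZH2 KO (5) the members called were 8 with DESeq2, and 3 to 7 with 1 library left out. The lowest was without EZH2 KO clone 2 and the highest without STAG2 KO clone 5. All genes called in these fits were 4025, 2224 and 5285, in that order, against 3091 in the main fit. For STAG2 KO against SUZ12 KO (5) the members called were also 3 to 7, the lowest without SUZ12 KO clone 1 or 2 or STAG2 KO clone 2. All genes called in the lowest fits were 2627, 2509 and 2752, against 3899 in the main fit. For the difference between STAG2 KO and STAG1 KO (2) the members called were 0 to 2, with 0 without either control of experiment 3. For siSTAG2 (4) the members called were 2 to 4, the lowest without control 1, siSTAG2 1 or siSTAG2 2. All genes called in the lowest fits were 1857, 2059 and 1808, against 2476 in the main fit.

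Over all genes, the count after STAG2 KO was 4048 without STAG2 KO clone 5, against 1687 with it, 3663 in experiment 1 alone, where the WT clone libraries were close to sampling noise of each other, and 494 in experiment 2 alone. It was 195 and 296 for the difference between STAG2 KO and STAG1 KO without the parental or WT clone library, against 898.

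For the knockdown, the replicate block left the number of members called at 4 and gave 2881 genes against 2476. Whether equal numbers mark a pairing there is not known. The correlations of same-numbered libraries were weak, at 0.0257, 0.0372 and 0.00402, and those of other pairs ranged from -0.0305 to 0.00561. Controls 1 and 2 correlated best with their own number, and control 3 better with siSTAG2 1 (0.00561). No block by replicate number was fitted in the other comparisons, where the numbers name clones or libraries of 1 group.

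Signs turned as follows. After STAG2 KO, RAD21 was -0.26 and MAU2 0.055 in experiment 1 alone, and RAD21 ranged from -0.026 to 0.16 with 1 library left out. After SUZ12 KO, RAD21 was -0.011 with WT clone controls only and ranged from -0.026 to 0.078, and NIPBL from -0.10 to 0.024. Against SUZ12 KO, SMC1A ranged from -0.029 to 0.44. After STAG1 KO the ranges were -0.036 to 0.072 (SMC3), -0.031 to 0.10 (RAD21) and -0.041 to 0.075 (NIPBL). For the difference between STAG2 KO and STAG1 KO they were -0.11 to 0.066 (RAD21) and -0.28 to 0.010 (SMC1A). Between controls they were -0.024 to 0.18 (STAG1), -0.16 to 0.12 (SMC1A), -0.041 to 0.084 (WAPL), -0.027 to 0.041 (PDS5A) and -0.062 to 0.074 (PDS5B). After siSTAG2 they were -0.049 to 0.046 (NIPBL) and -0.0024 to 0.10 (WAPL).

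With library size only, the median of the members in the A4573 pair was 0.079, against 0.16, and NIPBL turned to -0.058. With the longest transcript, the STAG1 share was 26.4% in A673 controls, 66.5% in STAG2 KO, 24.9% and 72.9% without and with siSTAG2, 21.2% and 39.3% in SK-N-MC with and without STAG2, and 48.8% and 81.8% in A4573. The PDS5B share was 29.6% and 33.0% in SK-N-MC and 24.5% and 31.3% in A4573. NIPBL over RAD21 was 0.241 in controls, 0.256 in STAG2 KO, 0.301 and 0.329 in the knockdown, 0.389 and 0.275 in SK-N-MC, and 0.0437 and 0.0495 in A4573. No alternative was run for the test between experiments.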
